A study of Mus musculus with 6 samples.

Results

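The 7 genes described here encode the cardiac natriuretic peptides (Nppa and Nppb), their receptors (Npr1, Npr2 and Npr3) and the proteases that process the peptides (Corin and Furin). They were chosen by gene symbol from a deposited table of 15118 genes, and all 7 were present and passed the filter on low values that left 13080 genes for testing. RNA was taken from 6 embryonic mouse hearts on a Black-Swiss background at E12.5, counted in days after mating. All 6 carried a Cre recombinase allele and a wild-type allele of Nkx2-5, a gene active in cardiac progenitors and heart muscle. The 3 control hearts (numbers 2, 5 and 9) paired a floxed Hif1a allele with a wild-type one, and the 3 mutant hearts (5, 8 and 10) paired it with a null allele. Cre removes a floxed segment only where Nkx2-5 is or was active, and cells with Cre activity in control hearts keep 1 intact Hif1a allele. Other cells keep the floxed allele, beside the null allele in mutant hearts and beside a wild-type allele in control hearts. The genotypes therefore differ in those cells too. No source used here says whether the Cre allele still makes Nkx2-5 protein. HIF1, the transcription factor that Hif1a gives its oxygen-sensitive subunit, acts when oxygen is low. The comparison asks which transcripts are higher or lower in the mutant hearts.

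Heart muscle cells make atrial natriuretic peptide (from Nppa) and B-type natriuretic peptide (from Nppb) as longer precursors. Corin, a protease on the surface of heart muscle cells, cleaves the Nppa precursor, and furin cleaves the Nppb precursor. Both peptides bind NPR1, a receptor that makes the messenger cGMP, while NPR2 answers C-type natriuretic peptide in the same way and NPR3 clears all of these peptides from the surroundings. In the embryonic heart, Nppa and Nppb are known as genes of the forming chambers, above all of the atria and the trabeculae.

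Nppb and Nppa lie side by side on mouse chromosome 4, on the plus strand, at 147985786 to 147987205 and at 148000722 to 148002074 (RefSeq, GRCm38.p6, the same build as mm10), with 13516 bases between them.

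The promoters of the ligand genes are shown because these were the members with separated values between the genotypes, as 17.0% of all tested genes had. Sequences are from the RefSeq promoter table (GRCm38.p6). For Nppa it is the 250 bases before the listed start. For Nppb only the stretch from the first to the last motif match is printed, since the RefSeq gene record begins upstream of it, at 147985786. All Nppb matches therefore lie inside that record, and the search covered only part of the 250 bases before its start. Capitals mark matches to 6 motifs searched on both strands of the 250 bases before each start.
Nppa promoter, chr4:148000472-148000721, plus strand: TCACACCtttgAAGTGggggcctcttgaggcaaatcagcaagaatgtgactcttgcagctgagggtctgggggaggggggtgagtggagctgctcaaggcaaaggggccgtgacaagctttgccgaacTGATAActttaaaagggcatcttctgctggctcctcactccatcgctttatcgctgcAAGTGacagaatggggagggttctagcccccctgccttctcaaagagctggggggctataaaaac
Nppb promoter stretch, chr4:147985795-147985821, plus strand: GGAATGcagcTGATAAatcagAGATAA
The Nppa window held a T-box element (GGTGTGA or GGTGTTA, in 4.62% of 32851 promoter windows) at its far end, on the minus strand. It also held 2 matches to the core of the NKX2-5 element (AAGTG, in 40.7% of windows) and 1 GATA motif (AGATAN or TGATAN, where N is A or G, in 26.5%). The Nppb window held 2 GATA motifs and 1 MCAT motif (CATTCC, the site of TEAD factors, in 12.6%). No exact match to the core of the HIF1 element (ACGTG or GCGTG, in 38.6% of windows) was found in either window. Nor was there an exact match to the CArG box (CCWWWWWWGG, where W is A or T, the site of SRF, in 1.47%). Stretches that differ from a motif by a letter were not searched for. The matches in the Nppa and Nppb windows did not overlap each other. The HIF1 core letters did occur in the windows of Npr1, Corin and Furin. A match describes the letters of the window and does not show binding. Lack of an exact match does not show that a site is absent.

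Values are RPKM, reads per kilobase of the constitutive exons used for a gene, scaled to the reads of the library. Log2 changes are mutant minus control on log2(RPKM + 1), a scale that understates the change of a weakly expressed gene. Library depth, read from the steps between small values, ran from 101100000 reads in mutant 8 to 159600000 in mutant 10. Hif1a measured between 46.4 and 61.2 RPKM in control and between 54.96 and 77.7 RPKM in the mutants (a log2 change of 0.43 ± 0.16 SE, limma adjusted p = 0.358). No source used here names the deleted exons, so this value does not check the deletion. Along the first principal component (45.3% of the variance) control 2 and mutant 8 lay at the ends, and mutant 5 lay between controls 5 and 9. The chromosome Y gene Eif2s3y was at 0.00533 RPKM in control 9 and 0.037 RPKM in mutant 8, against 18.8 to 27.7 RPKM in the other hearts. Heart muscle markers such as Tnnt2 and Actn2 were all present, with a summed level of 10 markers between 9700 and 11400 RPKM. The labels name hearts but not separate litters or pools, and the p-values measure only how far these samples spread, which may be technical. In whole hearts a change in the number of cells of a type and a change in RNA per cell cannot be told apart.

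The ligand genes stood apart from the other members. Nppa rose in the mutant hearts, and Nppb had a similar log2 change with a wider spread and did not pass the test. The receptors and proteases had overlapping values. Values did not overlap in 2 of the 7, both higher in the mutant hearts (7.60% of all tested genes were), and in none lower (9.43%). Of the 7 genes 1 passed an adjusted p of 0.05 in limma, against 0.818% of all tested genes (0.420% higher and 0.398% lower). Log2 changes were above 0 in 5 of the 7, against 42.6% of all tested genes, with a median of 0.008 against −0.03. At an unadjusted p of 0.05 lay 2 of the 7, both higher (4.92% of all tested genes were), and none lower (6.26%). Reads estimated for a member in a heart ranged from 897 (Npr1, mutant 8) to 256807 (Nppa, mutant 10), and counting error was at most 3.34% of a value, below the spread between hearts of a genotype for each of the 7 genes.

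**Figure D1:**
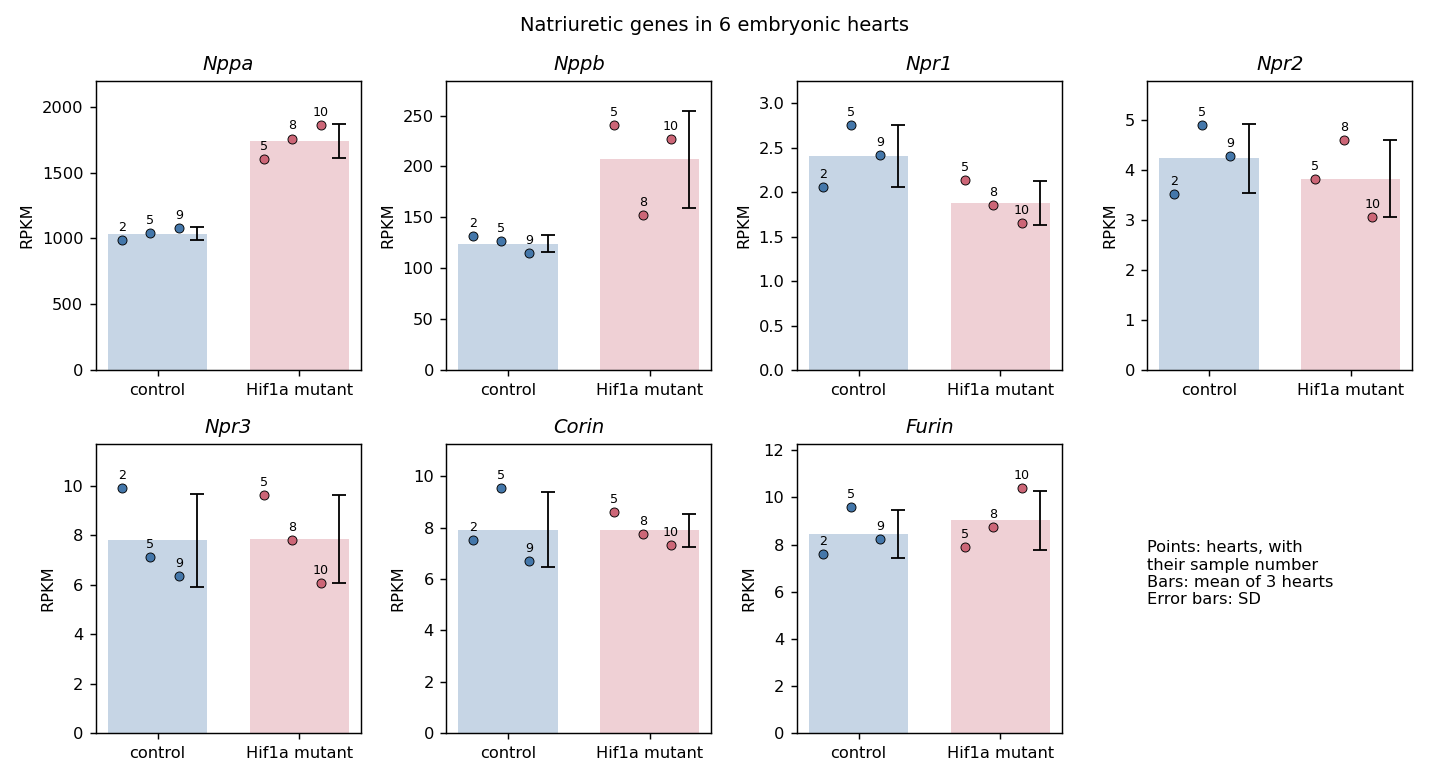
RPKM of the 7 natriuretic genes (vertical axes, linear from 0, a scale of its own for each gene) in control and Hif1a mutant hearts; points are hearts with their sample numbers, bars are means of 3 hearts and error bars SD. Nppa (986 to 1083 against 1602 to 1860.2 RPKM) and Nppb (115 to 131 against 153 to 241 RPKM) are separated between the genotypes, and the other 5 genes overlap. Of all tested genes 17.0% are separated, 7.60% with higher values in the mutant hearts.

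Nppa (ENSMUSG00000041616), the atrial peptide gene, measured 986, 1039 and 1083 RPKM in controls 2, 5 and 9. It measured 1602, 1759 and 1860.2 RPKM in mutants 5, 8 and 10. Every mutant heart lay above every control heart, as in 7.60% of all tested genes. The means were 1036 ± 48.3 and 1740.2 ± 130.3 RPKM (SD, n = 3 each), a ratio of 1.68, with a log2 change of 0.75 ± 0.10 SE (95% interval 0.52 to 0.97, limma adjusted p = 0.0118). By mean level Nppa ranked 25th highest of the 13080 tested genes, and by p it ranked 44th. The call was lost without control 2 (limma adjusted p = 0.0524), control 5 (0.0717) or mutant 10 (0.0736). It was also lost in the 4 hearts without control 2 and mutant 8 (0.0534) and in the 4 hearts without control 9 and mutant 8 (0.0914). The log2 change stayed between 0.70 and 0.80 in all 16 alternative settings.

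Nppa shares exon bases with Gm13054 (ENSMUSG00000086806), an antisense gene on the minus strand. The shared bases are 532, 61.5% of the exon bases of Nppa and 64.9% of those of Gm13054 (GENCODE M21). Gm13054 measured 643, 701 and 720.2 RPKM in controls 2, 5 and 9 and 1058, 1150.0 and 1238 RPKM in mutants 5, 8 and 10 (log2 change 0.74 ± 0.10 SE, limma adjusted p = 0.0125). Its values followed those of Nppa in each heart, with a ratio of Nppa to Gm13054 between 1.48 and 1.53. No source used here says whether counting used strand, so reads of the 2 genes cannot be told apart.

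Nppb (ENSMUSG00000029019), the B-type peptide gene, measured 131, 126 and 115 RPKM in controls 2, 5 and 9. It measured 241, 153 and 227 RPKM in mutants 5, 8 and 10. All mutant values lay above all control values, a separation seen in either direction in 17.0% of tested genes, but mutant 8 lay closer to the control hearts than to the other mutant hearts. The means were 124 ± 8.48 and 207 ± 47.3 RPKM (SD, n = 3 each), with a log2 change of 0.71 ± 0.16 SE (95% interval 0.34 to 1.08, limma adjusted p = 0.117). The spread was 6.83% of the mean in control and 22.9% in mutant hearts, against 4.66% and 7.49% for Nppa. Without mutant 8 the log2 change of Nppb was 0.91 ± 0.10 SE and it passed (limma adjusted p = 0.00687). It also passed in the 4 hearts without control 2 and mutant 8 (0.00771) and in the 4 hearts without control 9 and mutant 8 (0.0283). In each genotype the lowest Nppb value came from the heart with almost no Eif2s3y (control 9 and mutant 8), and mutant 8 also lay at an end of the first principal component. The part of these in the result was not tested.

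**Figure D2:**
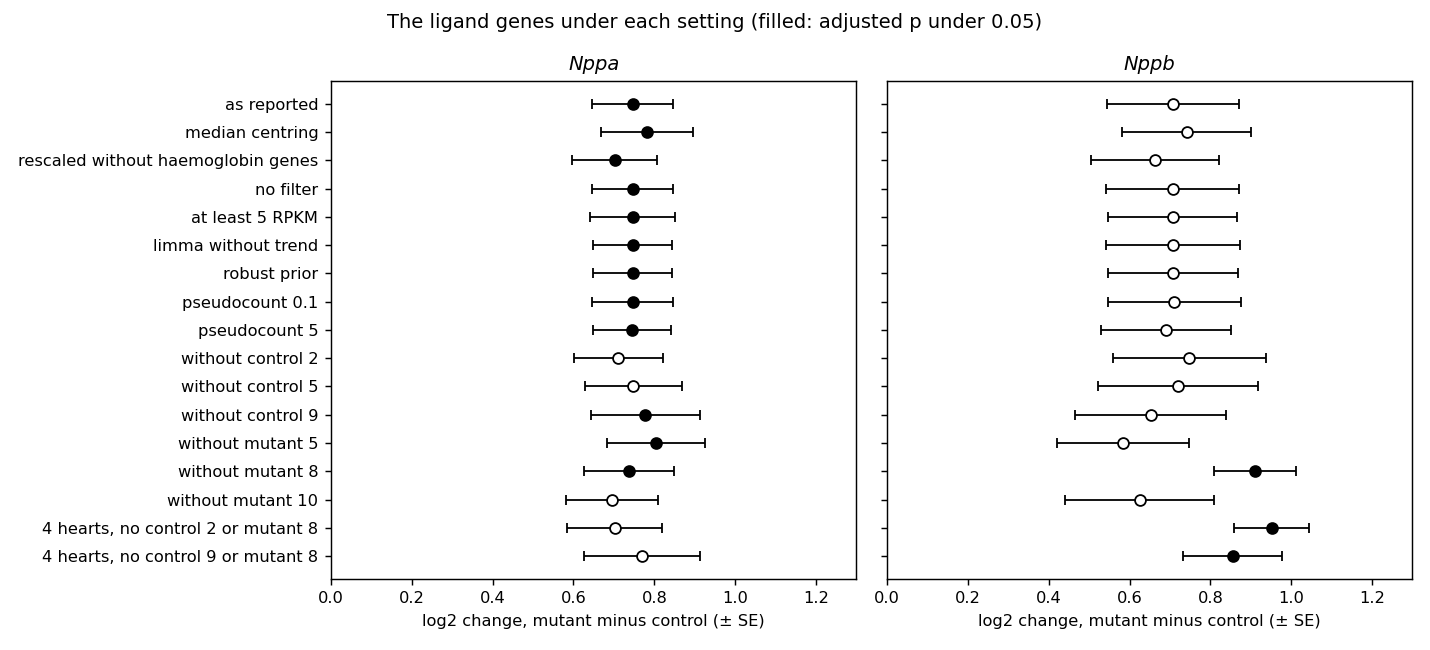
Log2 change of Nppa (left) and Nppb (right), mutant minus control, with SE, as reported and under each alternative setting (rows); filled points have an adjusted p under 0.05. Nppa stays between 0.70 and 0.80 and moves across the threshold as hearts are left out, while Nppb passes in the 3 settings without mutant 8.

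The ratio of mutant to control means was alike for Nppa (1.68) and Nppb (1.67), but the balance of the ligands varied from heart to heart. Nppa was 7.51, 8.22 and 9.43 times the level of Nppb per length in controls 2, 5 and 9, and 6.66, 11.5 and 8.18 times in mutants 5, 8 and 10. The log2 ratio of Nppb to Nppa had a mean of −3.06 ± 0.165 in control and −3.10 ± 0.399 in mutant hearts (SD, n = 3 each), a difference of −0.04 (exact two-sided permutation test p = 1.0, where 0.1 is the smallest p that 3 against 3 hearts allow). The difference turned positive without control 2 (0.041) or mutant 8 (0.178), and the spread leaves changes of this size in either direction undetectable. Against its control mean on the log2 scale, Nppb was 0.95, 0.30 and 0.87 higher in mutants 5, 8 and 10, where Nppa was 0.63, 0.76 and 0.84 higher. Together the ligand genes took between 0.313% and 0.348% of the summed RPKM in control hearts and between 0.520% and 0.602% in mutant hearts.

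Among 9204 genes whose mean on the log2 scale was 2 or more, those closest to Nppa in their deviations from the control mean over the 6 hearts were Gm13054, with a root mean square difference of 0.017 on the log2 scale, Cars (0.057) and Aars (0.060). Cars and Aars encode the cytosolic synthetases that charge cysteine and alanine tRNAs. Cars measured 6.03, 6.29 and 7.16 RPKM in controls 2, 5 and 9 and 10.97, 11.8 and 13.5 RPKM in mutants 5, 8 and 10. Closest to Nppb were Slc7a1 (0.129), a transporter of cationic amino acids, Phf10 (0.172), a subunit of a chromatin remodelling complex, and Lars (0.173), the cytosolic leucine tRNA synthetase. Slc7a1 measured 2.68, 2.91 and 2.81 RPKM in controls 2, 5 and 9 and 6.21, 4.43 and 6.71 RPKM in mutants 5, 8 and 10. Mutant 8 was its lowest mutant heart, as for Nppb, the gene to which it was matched. Nppb was the 90th closest gene to Nppa and Nppa the 30th closest to Nppb, with a difference of 0.250. These likenesses are descriptions over the same 6 hearts and carry no test.

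The receptor genes were expressed far below the ligand genes per length and none passed the test. Npr1 (ENSMUSG00000027931; chromosome 3, 90450591 to 90465928, minus strand), the cGMP-making receptor of both ligands, measured 2.05, 2.75 and 2.42 RPKM in controls 2, 5 and 9. It measured 2.14, 1.85 and 1.65 RPKM in mutants 5, 8 and 10. Mutant 5 lay above control 2, and the other 2 mutant hearts lay below all control hearts. The log2 change was −0.24 ± 0.12 SE (95% interval −0.50 to 0.02, limma adjusted p = 0.478).

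Npr2 (ENSMUSG00000028469; chromosome 4, 43629015 to 43651437, plus strand), the receptor of C-type natriuretic peptide, measured 3.52, 4.90 and 4.28 RPKM in controls 2, 5 and 9. It measured 3.83, 4.61 and 3.06 RPKM in mutants 5, 8 and 10. The groups overlapped, with a log2 change of −0.12 ± 0.15 SE (95% interval −0.45 to 0.21, limma adjusted p = 0.789). Nppc, which encodes the ligand of this receptor, was not listed in the table, in which the geometric mean of at least 1 genotype reaches 0.5 RPKM for each gene.

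Npr3 (ENSMUSG00000022206; chromosome 15, 11839896 to 11907837, minus strand), the clearance receptor and a known marker of endocardium, measured 9.93, 7.14 and 6.34 RPKM in controls 2, 5 and 9. It measured 9.64, 7.83 and 6.06 RPKM in mutants 5, 8 and 10. The groups covered the same range, and the log2 change was 0.01 ± 0.18 SE (95% interval −0.41 to 0.42, limma adjusted p = 0.991). The spread between hearts of a genotype was the largest of the 7 genes in control hearts, at 24.1% of the mean. The summed level of 11 other endothelial and endocardial markers was 161 to 179 RPKM in control and 157 to 164 RPKM in mutant hearts. Npr3 was 1.78, 0.933 and 0.947 times the summed level of Npr1 and Npr2 in controls 2, 5 and 9, and 1.62, 1.21 and 1.29 times in mutants 5, 8 and 10, with no separation of the genotypes.

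The protease genes were at similar levels in both genotypes. Corin (ENSMUSG00000005220; chromosome 5, 72299948 to 72504540, minus strand) measured 7.52, 9.55 and 6.71 RPKM in controls 2, 5 and 9 and 8.59, 7.76 and 7.33 RPKM in mutants 5, 8 and 10. All mutant values lay inside the control range, and the log2 change was 0.004 ± 0.13 SE (95% interval −0.29 to 0.30, limma adjusted p = 0.993). Furin (ENSMUSG00000030530; chromosome 7, 80389194 to 80405441, minus strand), which cleaves many precursors besides that of Nppb, measured 7.59, 9.58 and 8.23 RPKM in controls 2, 5 and 9. It measured 7.91, 8.75 and 10.4 RPKM in mutants 5, 8 and 10. Its log2 change was 0.08 ± 0.12 SE (95% interval −0.20 to 0.36, limma adjusted p = 0.832), and mutant 10 alone lay above the control hearts. The signs of the changes of Npr3, Corin and Furin depended on the hearts used, and those of Npr3 and Corin also on the scaling.

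In control hearts the order of the levels per length was Nppa, Nppb, Furin (8.46 ± 1.01 RPKM), Corin (7.93 ± 1.46), Npr3 (7.80 ± 1.88), Npr2 (4.23 ± 0.690) and Npr1 (2.41 ± 0.349; SD, n = 3 each). Furin, Corin and Npr3 did not differ beyond their spread, while Npr2 lay below all of these and above Npr1 in every control heart. Mutant hearts had the same order of means, with Furin at 9.02 ± 1.27 RPKM and Npr1 at 1.88 ± 0.246 RPKM.

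**Figure D3:**
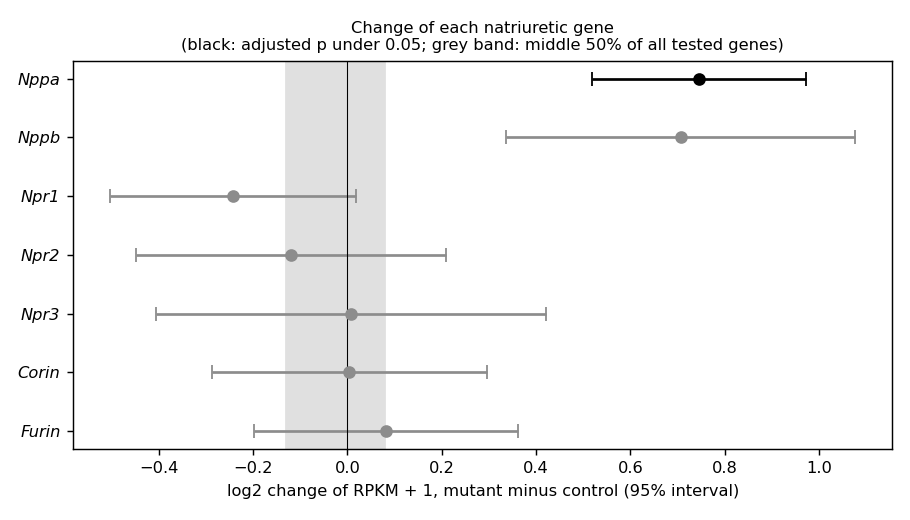
Log2 change of RPKM + 1, mutant minus control, for each of the 7 genes (points) with the 95% interval from limma (bars); black marks an adjusted p under 0.05 and the grey band holds the middle 50% of all tested genes. The intervals of Nppa and Nppb lie above 0 and those of the other 5 genes include 0.

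Most other genes of natriuretic peptide and cGMP signalling had lower means in the mutant hearts, and none passed the test. Of 26 genes listed for the pathway 23 were in the table and 19 were tested, and limma called none at an adjusted p of 0.05, against 9 (8 lower and 1 higher) at an unadjusted p of 0.05, where 11.2% of all tested genes lay. The log2 change was below 0 in 17 of the 19, against 57.4% of all tested genes, with a median of −0.26 and a range of −0.65 to 0.31. It was below 0 in 16 of the 19 after median centring and in 18 after rescaling without haemoglobin genes. The median was −0.14 without mutant 8 and −0.145 without control 5, over 19 and 18 genes. In 8 genes all mutant values lay below all control values (9.43% of all tested genes), and in 1, Vasp, above (7.60%). The examples beyond the 4 with the smallest p (Pde2a, Ide, Dpp4 and Pde1a) were chosen after their values were seen.

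The 3 enzymes that degrade natriuretic peptides had lower values in every mutant heart than in any control heart, as had 9.43% of all tested genes. Neprilysin (Mme) averaged 5.54 ± 1.176 RPKM over the controls and 3.81 ± 0.218 over the mutants (log2 change −0.43 ± 0.135 SE, limma adjusted p = 0.268). Insulin-degrading enzyme (Ide) measured 20.9 ± 1.81 and 14.8 ± 2.50 RPKM (−0.48 ± 0.13 SE, adjusted p = 0.187), and Dpp4, a peptidase that trims B-type natriuretic peptide, 9.44 ± 1.92 and 6.24 ± 1.00 RPKM (−0.52 ± 0.15 SE, adjusted p = 0.230). None of these passed.

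Phosphodiesterases, which break down cyclic nucleotides, had log2 changes below 0 in all 7 tested genes, from −0.65 to −0.04. Of all tested genes 57.4% lay below 0. Pde2a, an enzyme that cGMP stimulates, measured 2.65, 2.91 and 2.86 RPKM in controls 2, 5 and 9 and 1.95, 1.42 and 1.00 RPKM in mutants 5, 8 and 10 (log2 change −0.65 ± 0.14 SE, limma adjusted p = 0.0996). Without mutant 5 it was the one pathway gene that passed (−0.79 ± 0.13 SE, adjusted p = 0.0241). Pde1a measured 3.48 ± 0.653 and 2.17 ± 0.512 RPKM (adjusted p = 0.246), and Pde1c 1.182 and 0.621 RPKM (adjusted p = 0.273). Pde1a, Pde1c and Pde2a were the 3 phosphodiesterases without overlap, where 9.43% of all tested genes were lower without overlap. Pde5a, which hydrolyses cGMP, measured 1.24 and 1.025 RPKM and Pde9a 1.74 and 1.67 RPKM, with overlapping values.

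The soluble guanylyl cyclase subunit Gucy1a3 measured 16.6 ± 1.57 RPKM over the controls and 13.2 ± 0.394 over the mutants (limma adjusted p = 0.274), and its partner Gucy1b3 22.3 and 21.5 RPKM with overlapping values. The cGMP-dependent kinase Prkg1 measured 3.59 and 3.18 RPKM, also overlapping. Vasp, a cytoskeletal substrate of that kinase, measured 32.6 ± 2.73 and 40.8 ± 4.61 RPKM (log2 change 0.31 ± 0.11 SE, adjusted p = 0.339). The convertases Pcsk5, Pcsk6 and Pcsk7, relatives of furin of which Pcsk6 activates corin, had log2 changes of 0.016, −0.129 and −0.003. Pam, an abundant protein of atrial secretory granules, measured 140.4 ± 27.0 and 109.5 ± 17.3 RPKM with overlap between control 2 and mutant 5 (adjusted p = 0.446).

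Markers of some other cell types had log2 changes of the same sign as these pathway genes. Of 11 epicardial and mesenchymal markers none passed, 10 had a log2 change below 0 (median −0.32, where 57.4% of all tested genes lay below 0), 4 of them at an unadjusted p of 0.05 (6.26% of all tested genes were lower at that p), and their summed level was 391 to 402 RPKM in control and 242 to 328 RPKM in mutant hearts. The smallest p were those of the collagen genes Col1a2 (81.8 and 46.6 RPKM, limma adjusted p = 0.107) and Col1a1 (0.288), of Dcn (0.327) and of Postn (0.344). Col1a1, Col1a2 and Postn made up most of the summed level. The markers Wt1, Tbx18, Tcf21, Upk3b and Aldh1a2 had overlapping values, with log2 changes of −0.13, −0.25, −0.22, 0.04 and −0.01. Of 7 macrophage markers none passed, all 7 were below 0 (median −0.62, against the same 57.4%), 5 of them at an unadjusted p of 0.05 (against 6.26%), and the summed level was 26.1 to 30.3 RPKM and 8.73 to 21.9 RPKM. Among these, Fcer1g (5.11 and 2.86 RPKM) had a limma adjusted p of 0.120, Mrc1 0.150, Cx3cr1 0.164 and Csf1r 0.316. No marker was at 0, since the table holds no value of 0. The part of these cell types in the pathway values was not tested. Of 11 endothelial markers other than Npr3 none passed, 4 did at an unadjusted p of 0.05 (3 lower and 1 higher, against 11.2% of all tested genes in either direction), and the median was −0.14. With Npr3 among them the median of the 12 was −0.08. The 4 were Cldn5 (2.57 and 1.08 RPKM, limma adjusted p = 0.0643), Kdr (0.198), Cdh5 (0.378) and, higher, Plvap (0.422). Of 4 smooth muscle markers 1 (Itga8, 4.26 and 2.70 RPKM) was lower at an unadjusted p of 0.05, against 6.26% of all tested genes. None of the 4 passed, and the median was 0.06. Of 8 erythroid markers none passed, none did at an unadjusted p of 0.05, and the median was −0.02. Of 8 markers of liver, lung and neural tissue 3 had values and 2 were tested. These were Tubb3 of neurons and Apoa2 of liver, with log2 changes of 0.46 and 0.425 (limma adjusted p = 0.246 and 0.332). Neither passed, and both were higher at an unadjusted p of 0.05, against 4.92% of all tested genes. Afp, a liver marker left out by the filter, went the other way. It averaged 1.37 RPKM over the controls and 0.298 over the mutants, with overlapping values. Alb, Apoa1, Sftpc, Nkx2-1 and Sox10 had no values.

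**Figure D4:**
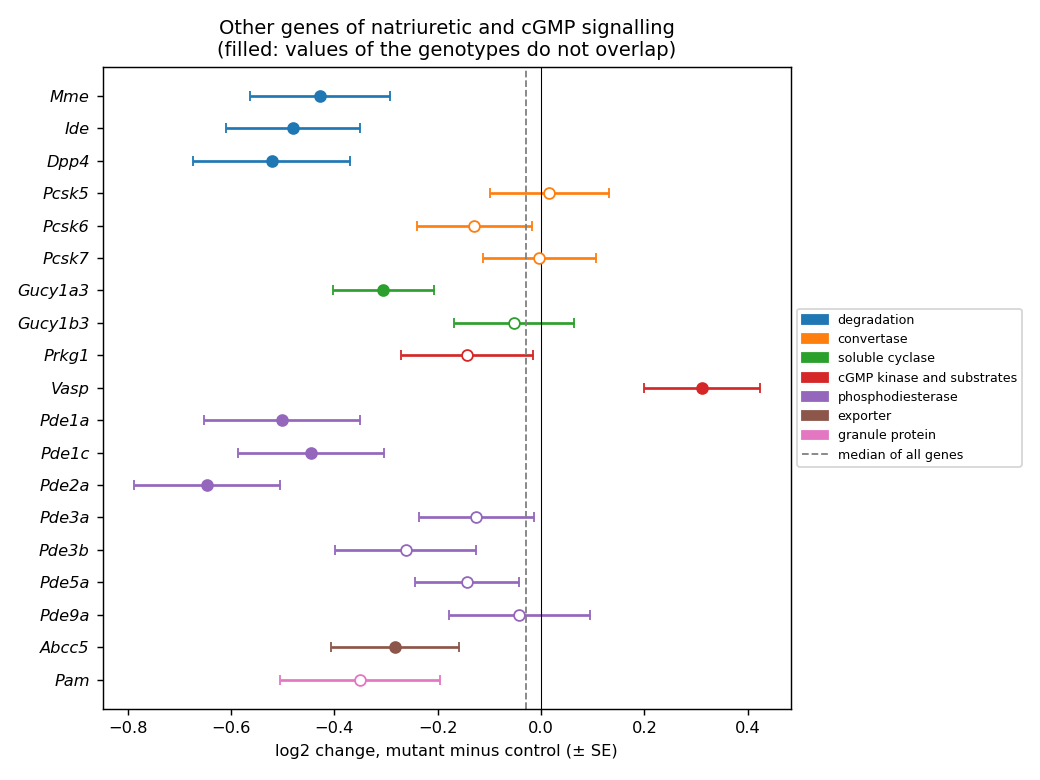
Log2 change, mutant minus control, with SE (bars) for the 19 tested genes of natriuretic and cGMP signalling other than the 7 described first, coloured by role; filled points are genes whose values do not overlap between the genotypes, and the dashed line is the median of all tested genes. All 3 degrading enzymes and 3 of the 7 phosphodiesterases are lower without overlap (9.43% of all tested genes are), and Vasp is the one gene higher without overlap.

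Nppa and Nppb mark particular chambers, so markers of chamber muscle were set beside them. The summed level of 10 atrial markers was 2400 to 2840 RPKM in control and 2950 to 3500 RPKM in mutant hearts, without overlap. The atrial light chains Myl7 (1550 ± 226 and 2066 ± 220 RPKM) and Myl4 (951 ± 42.7 and 1150.2 ± 95.9 RPKM) made up most of that sum, and their limma adjusted p was 0.268 and 0.358. Of the 10 markers 7 had a log2 change below 0, against 57.4% of all tested genes, and the median was −0.24. Among the 7 were Sln (4.30 and 1.89 RPKM, adjusted p = 0.370) and Nr2f1 (1.49 and 0.901 RPKM, adjusted p = 0.299). None of the 10 passed in limma. At an unadjusted p of 0.05, 2 were higher (Myl7 and Myl4, against 4.92% of all tested genes) and 3 lower (Sln, Nr2f1 and Kcna5, against 6.26%).

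Of 10 ventricular markers none passed, 2 (Kcne1 and Hey2, both lower, against 6.26% of all tested genes) did at an unadjusted p of 0.05, and the median was −0.06. Their summed level was 9590 to 10200 RPKM in control and 8870 to 9800 RPKM in mutant hearts. Kcne1, a potassium channel subunit, measured 5.89 ± 1.60 and 2.60 ± 0.378 RPKM (limma adjusted p = 0.0559). Of 12 trabecular and conduction markers 1 passed, against 0.818% of all tested genes, and the median was −0.04. It was the transcriptional regulator Cited1, which rose (log2 change 0.73 ± 0.12 SE, limma adjusted p = 0.0324). The trabecular and atrial growth factor gene Bmp10 measured 8.88, 14.3 and 7.29 RPKM in controls 2, 5 and 9 and 19.5, 12.7 and 12.3 RPKM in mutants 5, 8 and 10 (adjusted p = 0.460). The summed level of 12 trabecular markers was 322 to 372 RPKM in control and 363 to 410 RPKM in mutant hearts, with overlap. Cited1 (means of 93.7 and 156 RPKM) and Smpx (192 and 175 RPKM) made up most of that sum. The part of chamber composition in the Nppa and Nppb values was not tested.

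Of 10 markers shared by heart muscle cells 1 (Actc1) was higher at an unadjusted p of 0.05, against 4.92% of all tested genes. None of the 10 passed in limma, and the median was 0.001. Nppa divided by the summed level of these markers was 0.101 to 0.102 in control and 0.154 to 0.168 in mutant hearts, without overlap. Nppb divided by the same sum was 0.0108 to 0.0135 in control hearts, and mutant 8 (0.0134) lay inside that range while mutants 5 (0.0235) and 10 (0.0205) lay above it. Of 9 other genes that rise with the natriuretic peptides in stretched or stressed heart muscle none passed. At an unadjusted p of 0.05, 1 was higher (Ctgf, 12.0 and 16.3 RPKM), against 4.92% of all tested genes. The median was 0.145, against −0.03 for all tested genes. Ankrd1, a gene of stretched muscle, measured 255 ± 28.2 and 292 ± 51.2 RPKM (adjusted p = 0.663).

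None of 26 transcription factors known to act on the ligand genes passed in limma, 3 did at an unadjusted p of 0.05 (1 higher and 2 lower, against 11.2% of all tested genes in either direction), and the median log2 change was −0.03. Of these 3, Hey2, a transcriptional repressor also counted among the ventricular markers, measured 26.4 ± 1.24 and 20.6 ± 1.86 RPKM (limma adjusted p = 0.201). The others were Hand1 (7.42 ± 0.247 and 11.9 ± 3.85 RPKM, adjusted p = 0.30) and Klf13 (1.95 and 1.51 RPKM, adjusted p = 0.443). Hand1 measured 8.21, 11.5 and 15.9 RPKM in mutants 5, 8 and 10. Nkx2-5, which binds the core element found in the Nppa window, measured 14.8, 19.5 and 20.8 RPKM in controls 2, 5 and 9 and 17.6, 27.8 and 25.2 RPKM in mutants 5, 8 and 10, with overlap (log2 change 0.33 ± 0.18 SE, adjusted p = 0.533). Gata4, a factor of the GATA motif, measured 17.3 ± 1.84 and 18.3 ± 1.04 RPKM (adjusted p = 0.811), and Tead1, a factor of the MCAT motif, 11.5 ± 0.961 and 11.5 ± 1.74 RPKM (adjusted p = 0.990). The T-box factors Tbx2, Tbx3, Tbx5, Tbx18 and Tbx20 had overlapping values, with log2 changes of 0.154, −0.05, 0.152, −0.246 and −0.107.

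Apart from Gm13054, the genes around the ligand pair were near 0 change. Of 8 tested neighbours 1 passed, against 0.818% of all tested genes. It was Gm13054, which shares 61.5% of the exon bases of Nppa, so its reads cannot be told apart from those of Nppa. The other 7 had log2 changes between −0.14 (Miip) and 0.17 (Mfn2). Clcn6, a chloride transporter gene whose span begins 3.5 kb beyond the Nppa start, measured 2.97, 4.21 and 3.59 RPKM in controls 2, 5 and 9 and 3.65, 3.48 and 4.03 RPKM in mutants 5, 8 and 10 (limma adjusted p = 0.905). Agtrap had a log2 change of 0.15 (adjusted p = 0.609) and the mitochondrial fusion gene Mfn2 0.17 (0.597).

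**Figure D5:**
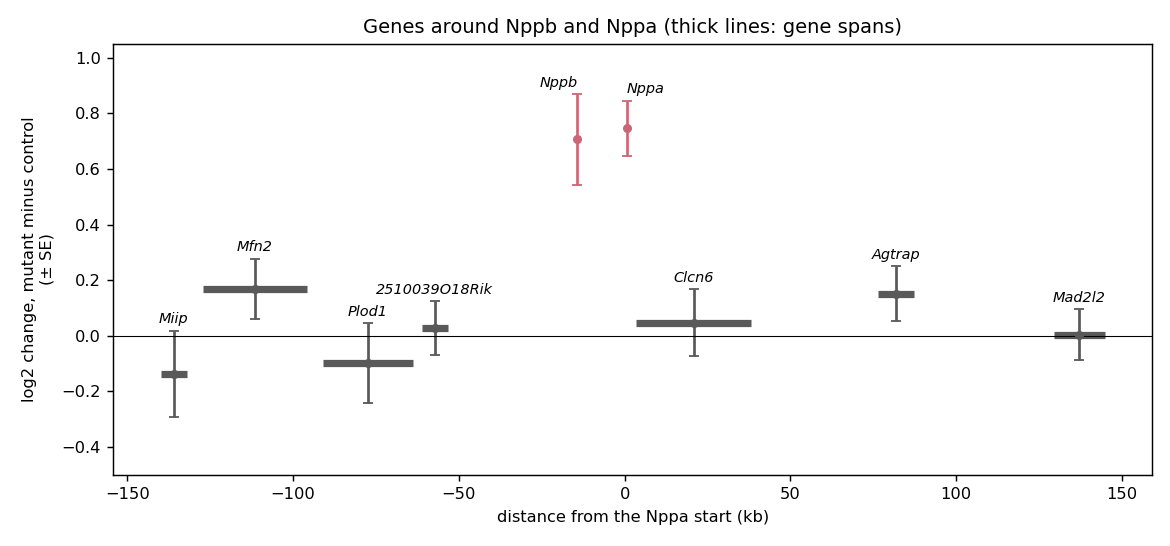
Log2 change, mutant minus control, with SE (vertical axis) of Nppa, Nppb and 7 neighbouring genes against distance from the Nppa start in kb; thick horizontal lines are gene spans in RefSeq. Nppb (0.71) and Nppa (0.75) stand above the neighbours, which lie between −0.14 and 0.17; the antisense gene Gm13054 is not drawn.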

How the data were processed

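RNA of 6 hearts was sequenced. The submitters' processing notes list Trim Galore, TopHat2 and mm10; no source used here gives versions, the counter or strandedness. RPKM values, as deposited by the authors, cover the constitutive exons listed for each gene per the file headers; the unit was inferred from the values. In single-exon genes 87.5% to 94.7% of low values times length lay within 0.1 of a whole multiple of a step per library (medians of 18.9% to 20.3% for other steps), which gives the depth.

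A gene was tested if 3 or more hearts reached 1 RPKM. limma 3.58.1 (trend, R 4.3.3) was run on log2(RPKM + 1) without covariates, two-sided, with Benjamini-Hochberg adjustment over 13080 genes and a threshold of 0.05. The fit was tested on simulated data. The genes described and the lists were chosen with earlier results of these data known. Named are the 7 genes, up to 4 members of each list with the smallest p, members past the threshold, and the 3 genes most like each ligand; others were named after their values were seen. Reads per gene were estimated from GENCODE M21 exon lengths. Alternatives were median centring, rescaling without haemoglobin genes, no filter, a minimum of 5 RPKM, no trend, a robust prior, pseudocounts of 0.1 and 5, and leaving out hearts. Figures were drawn with matplotlib 3.10.9. A neighbouring gene and a sequence are not reported here.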

Additional observations from a re-analysis of the deposited data

How the results depend on the processing

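No paired analysis was possible because the genotypes share a single sample number. Leaving out 1 heart at a time, between 0 and 2 of the 7 natriuretic genes passed, between 40 and 198 of all genes, between 0 and 1 pathway genes, and the log2 ratio of Nppb to Nppa differed by −0.217 to 0.178, positive without control 2 (0.041) or mutant 8 (0.178). In the 4 hearts without control 9 and mutant 8, 53 genes passed against 107. Nppa lost its call in 5 of 16 settings (limma adjusted p up to 0.0914) and Nppb gained one in 3, both with the direction kept. Npr3 turned negative after rescaling without haemoglobin genes (−0.031), without control 5 (−0.038) or 9 (−0.113), without mutant 5 (−0.136) or 8 (−0.001) and in the 4 hearts without control 9 and mutant 8 (−0.122). Corin did after the same rescaling (−0.034), without control 2 (−0.023) or 9 (−0.095), without mutant 5 (−0.051), and in the 4 hearts without control 2 and mutant 8 (−0.013) or without control 9 and mutant 8 (−0.085). Furin did without mutant 10 (−0.017). Leaving out 1 heart at a time gave −0.136 to 0.174 for Npr3, −0.095 to 0.131 for Corin and −0.017 to 0.163 for Furin. Npr1 and Npr2 were not tested at a minimum of 5 RPKM. None of these passed in any setting, and the cause was not tested. Settings without hearts also have fewer samples. Higher genes were 51.4% of all calls, 62.6% after median centring and 40.6% after the rescaling. The estimated counting error of the 7 genes was at most 3.34% of a value (Npr1, mutant 8).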
